A study of Danio rerio with 12 samples.

Results

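The genes of fibroblast growth factor (FGF) signalling and of its feedback control were followed in zebrafish trunk neural crest labelled premigratory or migratory. Members were the gene identifiers whose name began with that of an FGF, an FGF receptor, a Sprouty, a Spred, IL17RD, a dual-specificity phosphatase (DUSP), ETV4, ETV5 or an FRS adaptor. They numbered 78 of the 25878 identifiers in the deposited table. FGFR1OP2 matches by the start of its name alone and is a partner gene of an FGFR1 fusion, and not a receptor.

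FGFs are secreted proteins that bind receptor tyrosine kinases on neighbouring cells, with heparan sulphate as a cofactor. The adaptor FRS2 links the active receptor to the RAS and ERK kinase cascade, which turns on the ETS factors ETV4 and ETV5. The same cascade induces its own brakes: Sprouty and Spred proteins act on the route to RAS and RAF, IL17RD (also called Sef) acts at the receptor and at MEK, and DUSP6 removes phosphate from ERK. In vertebrate embryos FGF signals pattern the posterior body axis, the somites and the mid-hindbrain boundary, and the feedback genes are widely used as a readout of the pathway. The neural crest is a population of cells that leaves the dorsal neural tube and gives rise to pigment cells, peripheral neurons and glia, among others.

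All embryos carried the transgene sox10:H2B-Dendra2, in which sox10 sequences drive a photoconvertible nuclear protein, and all 12 libraries bear the treatment label control. The 4 premigratory libraries hold trunk crest at 16 hours after fertilisation, converted in a free-hand region of the dorsal trunk. The 8 migratory libraries hold crest at 24 hours (23 to 24 in the design text) beside somites 10 to 15, where leader and follower nuclei were converted, and the labels do not say which library holds which. RNA of 20 sorted cells per library was amplified and sequenced, and for each population 8 embryos were converted. The comparison asks how the crest differed before and after confined migration. Before and after migration stand here for the premigratory and migratory libraries, and the latter hold crest labelled migratory. The groups also differed in age, 16 against 24 hours, and in the converted region, so these cannot be told apart from migration. No coordinates and no sequences of the members were used here.

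The libraries differed in more than stage. Sums of the deposited normalised values ran from 10735983 to 21711424 before and from 17765775 to 24227327 after migration, and 3650 to 6879 against 9007 to 11896 genes stood at a value of 10 or more. The summed level of 7 crest identifiers ran from 6302 to 22692 before and from 3423 to 58738 after migration, and SOX10 was at 1225 to 22646 in all of them. Of these identifiers FOXD3 and erbb3b rose (adjusted p = 0.0357 and 0.0400) and 0 fell, with erbb3b at 1.78 or less in every premigratory library and FOXD3 at 5.80 and 1.99 in premigratory replicates 2 and 3. In premigratory replicate 1 crestin was at 5.97 and TFAP2A at 3.30, and in migratory replicate 5 crestin was at 135. Premigratory replicate 1 had the highest summed level of 10 epidermis identifiers, 1535180, against 9149 to 267069 in the other premigratory libraries, 477917 and 634180 in migratory replicates 1 and 8, and 420.4 to 45978 in the other 6. Migratory replicate 5 had the highest summed level of 9 blood identifiers, 1096279, against 12.4 to 12233 in the other 11 libraries. The summed level of 20 muscle and somite identifiers was 340 to 3824 in premigratory libraries, 1068 to 4016 in migratory replicates 3, 4 and 7, and 69701 to 931625 in the other 5. For 7 neural tube identifiers it was 6457, 2630, 7729 and 18.1 in premigratory replicates 1 to 4, and 344 to 20094 after migration. For 5 endothelium identifiers it was 1.59, 6981, 4177 and 473, almost all from FLI1, and 13.7 to 2271 after migration. Of 6 identifiers of housekeeping genes 4 were listed at 0 in at least 1 library, so an exact 0 is given below as listed at 0 and not as absence. In at least 1 premigratory library 5 of the 6 were under 10. GAPDH was at 0 to 8.51 in premigratory and at 29.1 to 47371 in migratory libraries, while eef2b was at 8977 or more in all 12. In such bulk samples fewer cells that use a gene and less of its RNA per cell cannot be told apart.

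A few feedback genes of the pathway were present in every library of a stage. Most others, like the receptors, were present in some libraries, and most FGF ligands were near 0. Of the 20 identifiers of feedback inhibitors, MAP kinase phosphatases and ETS factors, 13 reached a value of 10 in at least 1 premigratory and 18 in at least 1 migratory library. The same held for 4 and 8 of 8 receptor identifiers and for 3 and 14 of 32 ligand identifiers. Over all 25878 identifiers 11088 reached 10 in a premigratory and 18320 in a migratory library. In every premigratory library 3 of the 20 were at 10 or more, and in every migratory library 3. For receptors and for ligands these numbers were 0 and 0, and over all identifiers 1391 and 3614. Whether the values account for transcript length is not stated, so levels are compared here between libraries and not between genes.

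**Figure D1:**
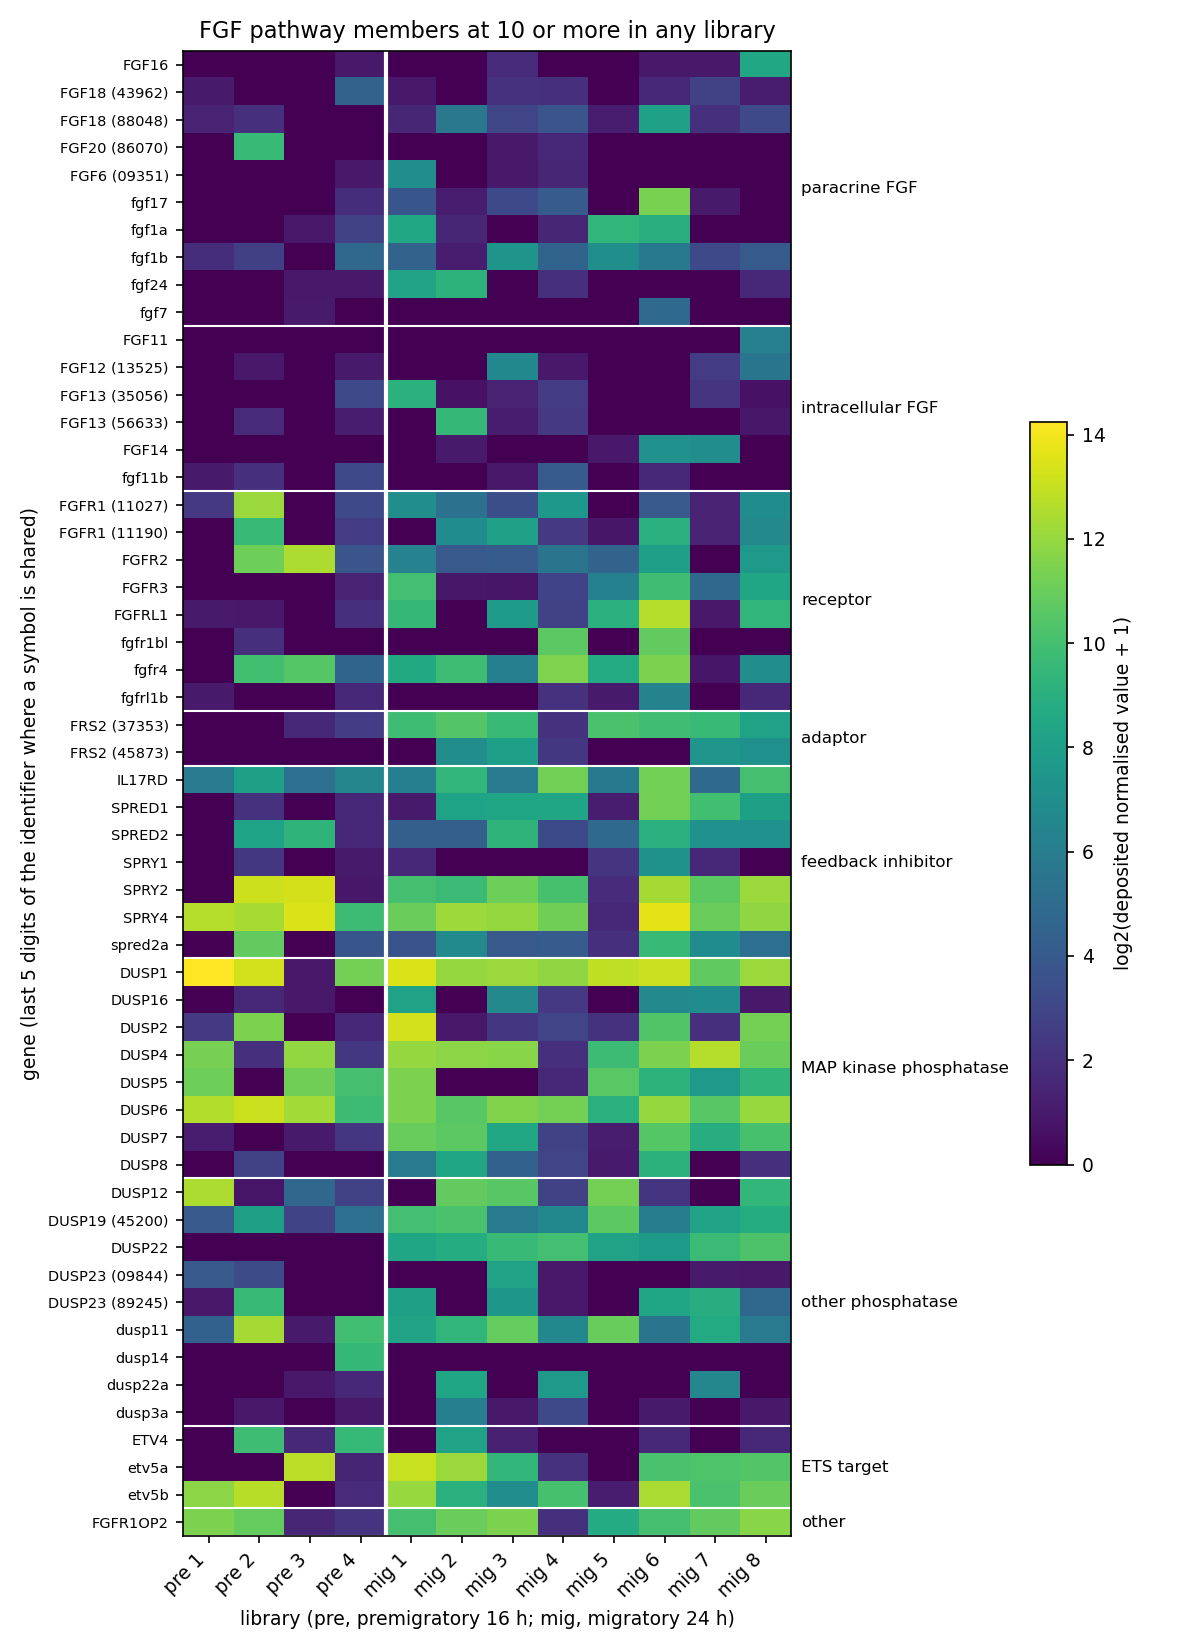
Deposited normalised value of the 54 members at 10 or more in any library, as log2(value + 1) in colour, with genes in rows by role and the 4 premigratory (pre) and 8 migratory (mig) libraries in columns. The feedback genes DUSP6 and SPRY4 are bright in all 4 premigratory columns, unlike most other feedback genes, and most ligand rows hold 1 to 3 bright cells.

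More members and more genes in all stood at 10 or more in most migratory libraries. Premigratory libraries held 12, 19, 11 and 14 members in replicates 1 to 4, with 4773, 6879, 3650 and 6653 genes. Migratory libraries held 18 to 37 members, with a median of 29.5. The fewest, 18 and 20, were in migratory replicates 5 and 4, which also had the fewest genes of that group (9007 and 9184). The mean was 14 ± 3.56 (SD, n = 4) and 27.75 ± 6.52 (SD, n = 8), and migratory replicate 5 lay within the premigratory range.

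**Figure D2:**
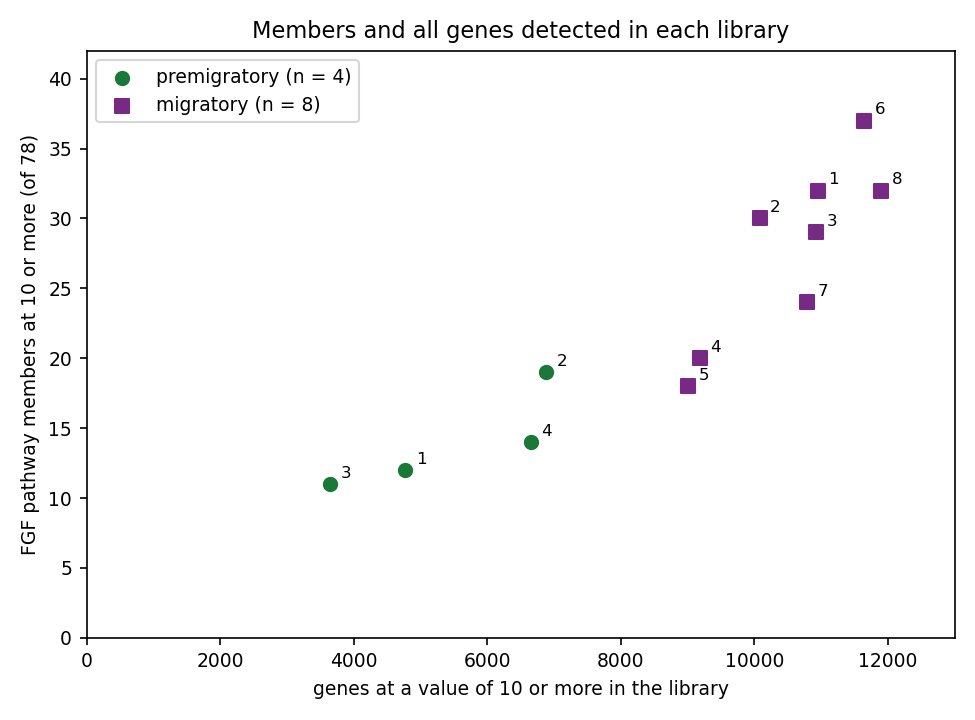
Number of FGF pathway members (of 78) against the number of all genes at a value of 10 or more, 1 point per library labelled with its replicate number (circles, 4 premigratory; squares, 8 migratory). The library with the fewest genes, 3650, holds the fewest members, 11, and the most members, 37, are at 11645 genes, while the library with the most genes, 11896, holds 32.

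Between the stages 3 members rose and 0 fell. These were DUSP22, 1 identifier of FRS2 and DUSP7, of the 31 members tested (9.68%), which are those with 4 or more libraries at 10 or above. The test was limma on log2(value + 1) over all 12122 genes that passed this filter, with a Benjamini-Hochberg adjusted p under 0.05. With 4 premigratory and 8 migratory libraries the filter favours genes that are high after migration. A gene seen in premigratory libraries alone had to reach 10 in all 4 of them. The 3 called members passed through migratory libraries alone, so the numbers higher and lower cannot be weighed against each other. Over all tested genes 12.4% were called higher and 0.132% lower, so the count of members was near this background. The median log2 fold change was 2.35 for the tested members and 2.67 for all tested genes. With 47 members under the filter, of which 1 was listed at 0 in every library, these counts do not cover the family. With the library number, which the labels call a batch, as a fixed replicate block 0 members and 0 genes passed in either direction. Batches 5 to 8 hold migratory libraries alone, so this fit compared the stages within batches 1 to 4 only and had little power. At an unadjusted p under 0.05 that fit had 6 members higher and 0 lower, and 2241 genes higher and 81 lower. Without the block these were 7 members higher and 0 lower, beside 31.8% of all tested genes higher and 0.66% lower. With the number as a random block, which uses all libraries, 12.9% of the tested members and 12.7% of all tested genes were called higher. Without premigratory replicate 1 and migratory replicate 5, a setting chosen after the data were seen, 3 members rose (9.68%) and 0 fell, beside 10.8% of the 11459 genes tested called higher.

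**Figure D3:**
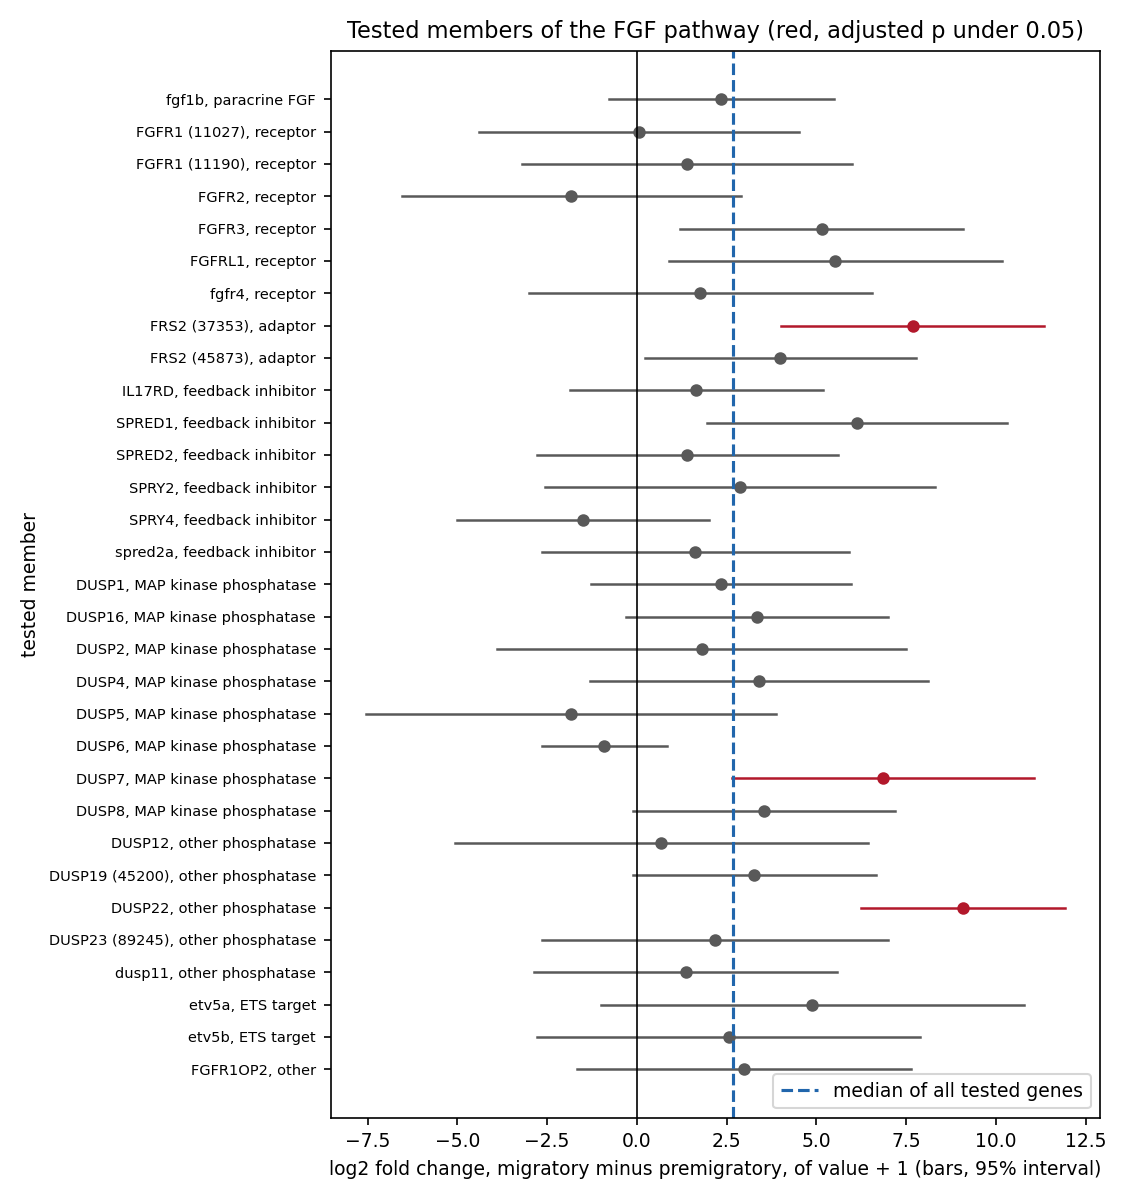
Log2 fold change, migratory minus premigratory, of value + 1 for the 31 tested members (points) with the 95% interval (bars), by role, with the last 5 digits of the identifier where a symbol is shared. The blue dashed line is the median of all 12122 tested genes, 2.67, and red marks the 3 members with an adjusted p under 0.05.

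Ligands were near 0 in most premigratory libraries and scattered among migratory ones. Of 32 identifiers of FGF ligands, 16 stayed under 10 in every library, as did 7111 of all 25878 identifiers. Among these ligand identifiers were both of FGF8 and those of FGF3 and FGF4, ligands well known from the early embryo. The highest value of FGF8 was 7.10, in migratory replicate 6. The endocrine FGFs, FGF19, fgf21 and fgf23, which act as hormones, had a highest value of 2.91.

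The acidic FGF paralog fgf1b was the sole ligand tested. It stood at 2.66, 5.50, 0 and 27.3 in premigratory replicates 1 to 4 and at 1.09 to 162 in migratory libraries, with a median of 22.5. The groups overlapped, and the log2 fold change was 2.35 (SE 1.49, 95% interval -0.78 to 5.49, adjusted p = 0.275). Its paralog fgf1a was at 5.78 or less in premigratory libraries. In migratory replicates 1, 5 and 6 fgf1a was at 367, 663 and 492.6, and in the other 5 it was at 1.90 or less.

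Other secreted ligands were high in 1 or 2 libraries. The FGF8 subfamily member fgf17 was at 2611 in migratory replicate 6 and at 15.8 or less in all other libraries. FGF18, of the same subfamily, reached 283 in that library in the identifier ENSDARG00000088048. The ligand fgf24, which in zebrafish acts in fin bud outgrowth, was at 324 and 588 in migratory replicates 1 and 2 and at 2.97 or less elsewhere. FGF20, in the identifier ENSDARG00000086070, was at 765 in premigratory replicate 2 and at 1.97 or less in the other 11 libraries. FGF16 reached 376 in migratory replicate 8, FGF6 (ENSDARG00000009351) 129.5 in migratory replicate 1 and fgf7 28.6 in migratory replicate 6, each with 2.41 or less elsewhere. No group difference can be read from ligands that are high in so few libraries, and none of these identifiers passed the filter.

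The FGF homologous factors FGF11 to FGF14 are not secreted and bind voltage-gated sodium channels inside the cell. None of their 7 identifiers reached 10 in a premigratory library, and 6 did in at least 1 migratory library. Over all 25878 identifiers 7679 reached 10 in migratory libraries alone, which outnumber the premigratory ones. FGF13 was at 547 in migratory replicate 1 in ENSDARG00000035056 and at 708 in migratory replicate 2 in ENSDARG00000056633, and each was at 7.70 or less elsewhere. FGF14 reached 148 and 125 in migratory replicates 6 and 7 and was listed at 0 in all premigratory libraries. The highest values of FGF12 (ENSDARG00000113525) were 100.2 and 45.01, in migratory replicates 3 and 8.

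Receptors differed from each other in the libraries that held them. Of 8 identifiers 6 were tested and 0 passed, beside 12.4% of all tested genes called higher and 0.132% lower. The median log2 fold change was 1.58, beside 2.67 for all tested genes. FGFR1 was split over 2 identifiers of that name beside fgfr1bl, and reads from such close copies could be divided among them. ENSDARG00000011027 stood at 4.19, 4333, 0 and 7.67 in premigratory replicates 1 to 4 and at 0 to 194 in migratory libraries, with a median of 26.6. ENSDARG00000011190 stood at 0, 766, 0 and 4.84, and at 0 to 516 with a median of 54.7. For both, premigratory replicate 2 was above every other library. The log2 fold changes were 0.066 (SE 2.11, 95% interval -4.40 to 4.53) and 1.40 (SE 2.17, 95% interval -3.19 to 5.99), with adjusted p = 0.986 and 0.680, and the sign of the former turned to negative under all 4 rescalings tried (-0.21 to -3.70). The untested fgfr1bl was at 1616 and 1823 in migratory replicates 4 and 6, at 2.90 in premigratory replicate 2 and listed at 0 in the other 9.

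FGFR2 and fgfr4 shared their pattern among premigratory libraries. FGFR2 stood at 0, 2171, 5741 and 12.6 in premigratory replicates 1 to 4 and at 0 to 259.5 in migratory libraries, with a median of 32.7. Premigratory replicates 2 and 3 thus lay above all 8 migratory libraries, and replicate 1 below 7 of them. On the log2(value + 1) scale the difference was -1.83 (SE 2.23, 95% interval -6.55 to 2.89, adjusted p = 0.596). For fgfr4 the premigratory values were 0, 979, 1418 and 22.9, and the migratory values ran from 0.793 to 2929 with a median of 408. Its log2 fold change was 1.77 (SE 2.26, 95% interval -3.01 to 6.54, adjusted p = 0.614), and the groups overlapped. Both receptors had their lowest migratory value in replicate 7.

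FGFR3 and FGFRL1, a receptor that lacks the kinase domain, were near 0 in all premigratory libraries. FGFR3 stood at 0, 0, 0 and 1.54 there, and at 0.752 to 1012 in migratory libraries, with a median of 51.8 and 5 of 8 libraries at 10 or more. Its log2 fold change was 5.14 (SE 1.86, adjusted p = 0.0751), which passed without migratory replicate 2 (adjusted p = 0.0487) and with a pseudocount of 0.1 (adjusted p = 0.0358). In the other 22 of 24 alternatives FGFR3 did not pass, with adjusted p up to 0.377. FGFRL1 stood at 1.01, 0.957, 0 and 2.91, and at 0 to 6379 with a median of 369. Its log2 fold change was 5.53 (SE 2.19, adjusted p = 0.0996). The 5 migratory libraries with FGFR3 at 10 or more were replicates 1, 5, 6, 7 and 8, in which muscle and somite identifiers summed to 931625, 69701, 351379, 1068 and 425408. Epidermis identifiers summed to 477917, 583, 45978, 1058 and 634180 in them. In migratory replicates 2, 3 and 4 FGFR3 was at 0.854, 0.752 and 6.17. There muscle and somite identifiers summed to 331584, 1763 and 4016, and epidermis identifiers to 44944, 420 and 3872. The part of other cell types in the receptor values was not tested. The paralog fgfrl1b reached 80.8 in migratory replicate 6 and 3.06 or less elsewhere.

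**Figure D4:**
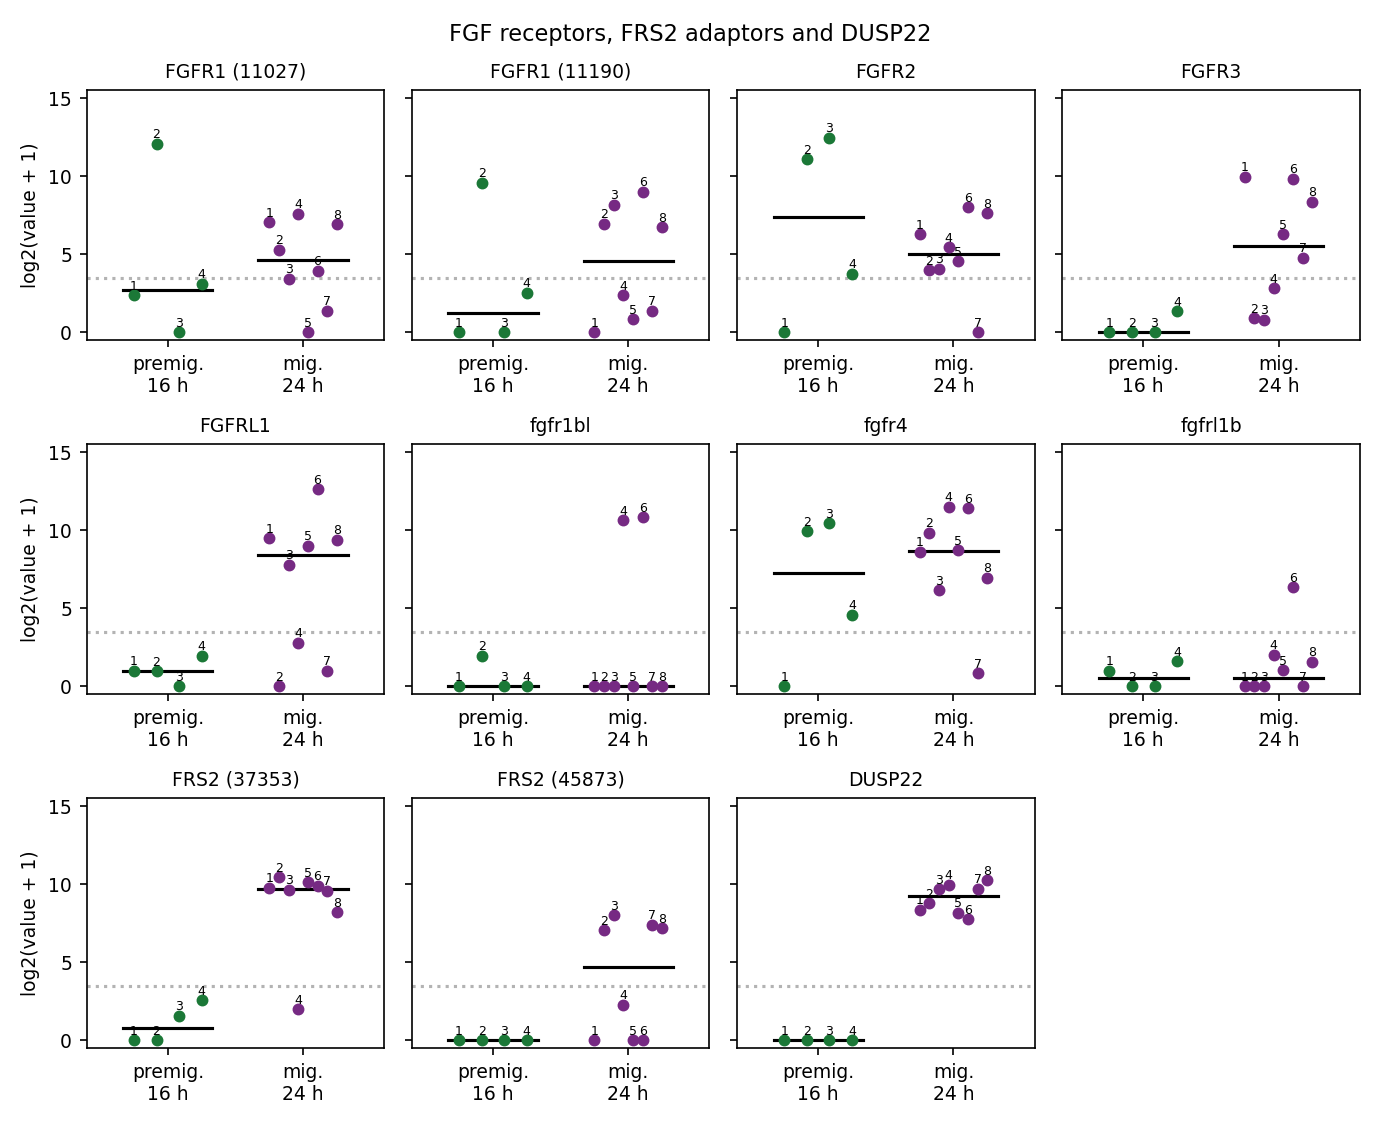
Values of 8 receptor identifiers, 2 FRS2 identifiers and DUSP22 as log2(value + 1), 1 point per library labelled with its replicate number (green, 4 premigratory; purple, 8 migratory), with the group median as a black line and a value of 10 as a dotted line. DUSP22 is the sole panel in which the groups do not overlap, with 0 in all premigratory libraries and 217 to 1215 in migratory ones.

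The docking adaptor FRS2 was near 0 before migration and rose in 1 of its 2 identifiers. ENSDARG00000037353 stood at 0, 0, 1.96 and 4.92 in premigratory replicates 1 to 4 and at 3.03 to 1394 in migratory libraries, with a median of 845. Migratory replicate 4 was at 3.03 and the other 7 were at 294 or more, so the groups overlapped through that library. Its fitted log2 fold change was 7.68 (SE 1.73, 95% interval 4.02 to 11.34, adjusted p = 0.0113). It was higher within batches 1, 2 and 3, by 9.79, 10.45 and 8.08, and lower within batch 4, by -0.56 on the same scale. The call was lost with the replicate block (adjusted p = 0.211), with quantile normalisation (adjusted p = 0.243) and in the exact permutation test (adjusted p = 0.0668). It held without each library in turn, with adjusted p from 0.000512 to 0.0266.

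The other FRS2 identifier, ENSDARG00000045873, was listed at 0 in all premigratory libraries. In migratory replicates 2, 3, 7 and 8 it stood at 133, 257, 170 and 143, and in the other 4 at 3.88 or less (adjusted p = 0.135). The highest value of the related adaptor FRS3 was 6.00, in migratory replicate 4.

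Of the 20 feedback inhibitors, MAP kinase phosphatases and ETS factors 16 were tested, and 1 rose (6.25%) and 0 fell, beside 12.4% and 0.132% of all tested genes. Their median log2 fold change was 2.44, beside 2.67 for all tested genes. Among the feedback inhibitors, SPRY4 and IL17RD were at 10 or more in every premigratory library. SPRY4 stood at 6500, 5246, 11208 and 871 in premigratory replicates 1 to 4 and at 2.14 to 13001 in migratory libraries, with a median of 3010. Of the migratory values 7 lay between 2003 and 13001, and the lowest, 2.14, was in replicate 5. The log2 fold change was -1.51 (SE 1.66, 95% interval -5.01 to 2.00, adjusted p = 0.553). Without that library it was -0.23.

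IL17RD was at 60.7, 277, 35.4 and 87.9 in premigratory and at 29.8 to 2372 in migratory libraries, with a median of 380. Migratory replicates 2, 4, 6 and 8 lay above every premigratory library, at 690.3 or more, and replicates 1, 3, 5 and 7 lay within the premigratory range or below it, at 70.7 or less. On the log2(value + 1) scale the difference was 1.65 (SE 1.67, 95% interval -1.88 to 5.17, adjusted p = 0.515), and it turned to -1.69 with quantile normalisation.

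SPRY2 was either high or near 0 in premigratory libraries. It stood at 0, 9235, 10431 and 0.924 in replicates 1 to 4. Migratory values ran from 2.55 to 5211 with a median of 1368, again with the lowest in replicate 5 and the other 7 at 832 or more. Its fitted log2 fold change was 2.88 (SE 2.57, 95% interval -2.55 to 8.30, adjusted p = 0.454), while on the linear scale the premigratory mean, 4917 ± 5698 (SD, n = 4), was above the migratory mean, 2064 ± 1834 (SD, n = 8). Premigratory replicates 2 and 3 were thus the high libraries for SPRY2, as for FGFR2 and fgfr4. The same held for SPRED2, at 0, 312, 614 and 1.96. Other members were high in other premigratory libraries: DUSP4 in replicates 1 and 3, etv5b in 1 and 2, ETV4 in 2 and 4, and FGFR1 in 2 alone. The share of all genes that were high in replicates 2 and 3 was not counted. Replicates 2 and 3 also had the highest premigratory crest sums, at 6302, 19768, 22692 and 12455 in replicates 1 to 4. In the crest list SOX10, crestin and TFAP2A were highest in them, while SOX9 and erbb3b did not follow. FOXD3 went the other way, at 2522, 5.80, 1.99 and 2940. The pattern held for FLI1 of the endothelium list, at 1.59, 6960, 4172 and 437. The other endothelium identifiers were at 23.2 or less in premigratory libraries. It also held for ACTA1 (ENSDARG00000036371) of the muscle and somite list, at 3.78, 1319, 3739 and 13.9. Others of that list did not follow, such as actc1b at 82.0, 25.9, 10.2 and 26.4 and MYOG at 96.9, 88.7, 29.4 and 548. For ELAVL3 of the neural tube list, at 3.25, 634, 7726 and 4.66, the pattern held too, but not for the sum of that list. Epidermis identifiers went the other way, with sums of 1535180, 9149, 23280 and 267069 in replicates 1 to 4. The part of cell composition in this pattern was not tested.

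SPRED1 was at 3.11 or less in all premigratory libraries. Of the migratory libraries 6 were at 269 to 2385, and replicates 1 and 5 were at 1.06 and 1.12. The log2 fold change of 6.13 (SE 1.97, 95% interval 1.97 to 10.30) had an adjusted p = 0.0506. It passed with a pseudocount of 0.1 (adjusted p = 0.0331), without migratory replicate 1 (adjusted p = 0.0223) or 5 (adjusted p = 0.0221), and with the number as a random block (adjusted p = 0.0490). In the other 20 of 24 alternatives SPRED1 did not pass, with adjusted p up to 0.315. SPRY1 was at 149.5 in migratory replicate 6 and at 3.90 or less elsewhere, and SPRED3 at 3.74 or less throughout. For spred2a the highest value was 1803, in premigratory replicate 2, and the adjusted p was 0.602.

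DUSP6, the ERK phosphatase that is a standard readout of FGF signalling, was at 10 or more in all 12 libraries. It stood at 6315, 8906, 4989.8 and 882 in premigratory replicates 1 to 4 and at 521 to 4172 in migratory libraries, with a median of 2623. Premigratory replicates 1, 2 and 3 lay above all migratory libraries, and replicate 4 lay above migratory replicate 5 alone. The log2 fold change was -0.91 (SE 0.83, 95% interval -2.65 to 0.83, adjusted p = 0.462), with the smallest standard error among the tested members. It was lower within batches 1, 2 and 3, by -1.18, -2.58 and -0.76, and higher within batch 4, by 1.48. DUSP6 and IL17RD were the members at 10 or more in all 12 libraries, as were 1153 of all 25878 identifiers.

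DUSP1, an immediate early phosphatase of several MAP kinases, was at 19394, 10059, 0.992 and 2436 in premigratory and at 1742 to 10937 in migratory libraries. On the log2(value + 1) scale the difference was 2.34 (SE 1.72, adjusted p = 0.353), and without premigratory replicate 3, the library near 0, it was -0.65. DUSP4, a nuclear phosphatase induced by ERK, stood at 2574, 2.86, 3931 and 3.93, and at 2.95 to 6389 with a median of 3055. In migratory replicate 4 it was at 2.95, and in the other 7 at 858 or more (log2 fold change 3.40, SE 2.23, adjusted p = 0.292). DUSP5, a nuclear ERK phosphatase, was at 2157, 0, 2277 and 1043 and at 0 to 2713 (log2 fold change -1.84, SE 2.71, adjusted p = 0.664). DUSP2 was at 2716 in premigratory replicate 2 and at 9716, 1325 and 2501 in migratory replicates 1, 6 and 8, and at 6.88 or less elsewhere.

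DUSP7, the cytoplasmic ERK phosphatase closest to DUSP6, rose, but the call was lost in 15 of 24 alternatives, with adjusted p up to 0.376. It stood at 1.09, 0, 1.04 and 3.70 in premigratory replicates 1 to 4 and at 1.21 to 1949 in migratory libraries, with a median of 782. Migratory replicates 4 and 5 were at 5.84 and 1.21, and the other 6 at 378 or more. Its fitted log2 fold change was 6.86 (SE 1.99, 95% interval 2.66 to 11.05, adjusted p = 0.0346), and the value was higher within all 4 batches, by 9.87, 10.64, 7.54 and 0.54. The call was lost without any 1 premigratory library (adjusted p = 0.0672, 0.0663, 0.0819 and 0.0517 without replicates 1 to 4) and without migratory replicate 3, 6, 7 or 8 (adjusted p = 0.0528, 0.0547, 0.0532 and 0.0560). It was also lost with the replicate block (adjusted p = 0.190), with a pseudocount of 10, without a filter and in the exact permutation test. The same held with the trimmed mean of M values, the median of ratios and quantile normalisation. DUSP8 and DUSP16, which act mainly on JNK and p38, were at 5.68 or less in premigratory libraries and reached 570 and 300.2 in migratory ones, with adjusted p = 0.163 and 0.185. DUSP10 had a highest value of 1.06.

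**Figure D5:**
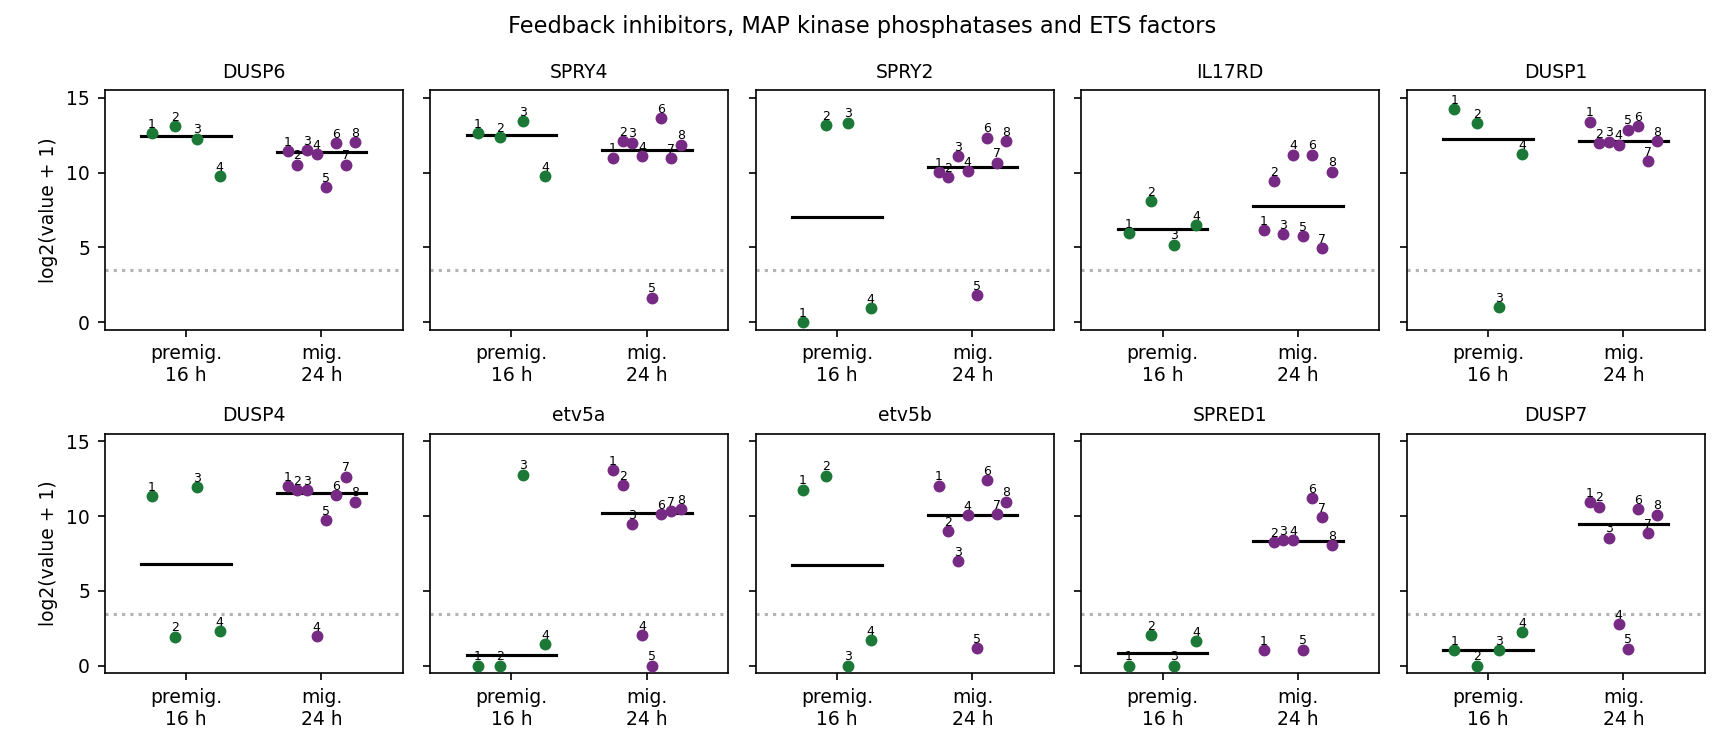
Values of 10 feedback inhibitors, MAP kinase phosphatases and ETS factors as log2(value + 1), 1 point per library labelled with its replicate number (green, 4 premigratory; purple, 8 migratory), with the group median as a black line and a value of 10 as a dotted line. DUSP6 is at 521 or more in all 12 libraries, and replicate 5 is the lowest of the migratory libraries for SPRY4, SPRY2 and etv5b.

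The ETS factors were detected unevenly. ETV4 was at 0, 895, 2.12 and 749 in premigratory replicates 1 to 4, at 291 in migratory replicate 2 and at 2.14 or less in the other 7 migratory libraries, too few for the test. For etv5a the premigratory values were 0, 0, 7071 and 1.74, and 6 of 8 migratory libraries were at 702 to 8621 (log2 fold change 4.89, SE 2.79, adjusted p = 0.227). For etv5b they were 3522, 6702, 0 and 2.26, and 7 of 8 migratory libraries were at 125 to 5503 (log2 fold change 2.55, SE 2.53, adjusted p = 0.505). Premigratory replicate 3 held etv5a and not etv5b, replicates 1 and 2 the reverse, and replicate 4 neither at 10 or more.

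Migratory replicate 5, the library rich in blood markers, was low for many feedback genes. SPRY4, SPRY2, etv5a, etv5b, SPRED1 and DUSP7 were at 2.14, 2.55, 0, 1.24, 1.12 and 1.21 there. DUSP6 was at 521, the lowest value of any library, while DUSP1 was at 7575 and FRS2 (ENSDARG00000037353) at 1117. DUSP5 was at 1542, DUSP4 at 858 and IL17RD at 52.8. Values near 0 were not limited to this library, as DUSP7, etv5a and DUSP4 were at 5.84, 3.11 and 2.95 in migratory replicate 4. Crest identifiers summed to 3423 in migratory replicate 5, against 10019 to 58738 in the other migratory libraries. The part of cell composition in these values was not tested.

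Of the dual-specificity phosphatases outside the MAP kinase phosphatase group, DUSP22 rose. DUSP22, known as a regulator of JNK signalling in mammals, was listed at 0 in all 4 premigratory libraries. In migratory replicates 1 to 8 it stood at 328, 443, 816, 1003, 291, 217, 839 and 1215. The groups did not overlap, as for 4.83% of all tested genes in this direction and 0.14% in the other, and no other member was separated. The housekeeping gene GAPDH was separated in the same direction. The difference on the log2(value + 1) scale was 9.09 (SE 1.35, 95% interval 6.25 to 11.93, adjusted p = 0.000672). Against a group listed at 0 this is no fold change, and it moved to 12.41 with a pseudocount of 0.1 and to 5.80 with a pseudocount of 10. It was higher within all 4 batches, and the call was lost with the replicate block (adjusted p = 0.158) and held in every other alternative, with adjusted p from 0.000102 to 0.0491. In migratory replicates 3, 4 and 7, where muscle and somite identifiers summed to 1068 to 4016, DUSP22 was at 816 to 1003, and its highest value, 1215, was in migratory replicate 8, where they summed to 425408. The part of muscle cells in the rise of DUSP22, FRS2 and DUSP7 was not tested. Its paralog dusp22a was at 337, 203 and 94.9 in migratory replicates 2, 4 and 7 and at 1.95 or less elsewhere, and reads of the paralogs may be split between them.

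The remaining phosphatases did not pass. DUSP19 (ENSDARG00000045200) was at 14.6, 273, 6.56 and 35.3 in premigratory and at 60.8 to 1637 in migratory libraries, with a median of 377 (log2 fold change 3.28, SE 1.6, adjusted p = 0.164). The RNA phosphatase dusp11 was at 20.3, 5121, 1.01 and 957 and at 43.5 to 1918 (adjusted p = 0.663), and DUSP12 was at 5867, 0.736, 25.1 and 5.82 and at 0 to 2459 (adjusted p = 0.885). The untested dusp14 was at 715 in premigratory replicate 4 and listed at 0 in the other 11. DUSP23 (ENSDARG00000089245) was at 800.6 in premigratory replicate 2, at 0.970 or less in the other premigratory libraries and at 25.6 to 462 in 5 migratory libraries (adjusted p = 0.531). Its other identifier reached 296 in migratory replicate 3, and dusp3a reached 70.6 in migratory replicate 2. DUSP13B, DUSP26, DUSP28, the second DUSP19 identifier and dusp3b, which was listed at 0 throughout, had no value above 3.95. FGFR1OP2 was at 2766, 1856, 1.90 and 3.33 and at 2.82 to 3410 (adjusted p = 0.354).

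Other genes of the pathway, from receptor cofactors and heparan sulphate enzymes to the RAS and ERK cascade, showed few calls. Of 55 symbols listed 54 were matched, with 69 identifiers, of which 52 were tested. Among these 2 rose and 0 fell, with a median log2 fold change of 2.03, beside 12.4% called higher and a median of 2.67 over all tested genes. The immediate early gene ier2b was at 1180, 2.86, 0 and 1.99 in premigratory replicates 1 to 4 and at 509 to 1728 in migratory libraries. Its log2 fold change was 6.51 (SE 1.73, adjusted p = 0.0245). The paralog ier2a was at 768 to 18173 and at 6353 to 33887, and was not called (log2 fold change 1.26, SE 0.70, adjusted p = 0.213). The kinase genes MAP2K1 and MAP2K2, which encode the MEK kinases upstream of ERK, had log2 fold changes of 4.04 and 3.99 with adjusted p = 0.162 and 0.167. MAPK3 had an adjusted p = 0.133, and kras and akt1 had adjusted p = 0.0639 and 0.0612. NRAS and HS6ST2 had log2 fold changes of -2.33 and -2.31 with adjusted p = 0.294 and 0.265. For BRAF and ARAF they were 0.37 and 0.41 with adjusted p = 0.921 and 0.861. Of the 52 tested, 48 had a positive and 4 a negative log2 fold change, beside 10362 and 1760 of all tested genes. The immediate early gene egr1 and the ETS gene ETS1 had adjusted p = 0.165 and 0.476.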

How the data were processed

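RNA of 20 sorted trunk crest cells per library was amplified with SMART-Seq v4 chemistry and tagmented with Nextera, per the labels' protocols. The submitters' processing notes list fastp 1.0, Salmon and the build GRCz11 without saying what each was used for. Values are a signal per gene that the authors name normalised counts. Neither the normalisation nor the annotation and filters behind them is given in the sources used here. Of low values 12.3% to 31.7% per library were whole multiples of a step within a tolerance of 0.05, so whole reads were not recovered and depth is known only as sums of normalised values. Columns left out numbered 0. Symbols matched 23604 of 25878 identifiers, and 22 members share a symbol with another member.

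Groups were taken from the library titles. limma 3.58.1 (R 4.3.3; lmFit, eBayes with trend) compared migratory with premigratory libraries on log2(value + 1), over genes at 10 or more in at least 4 libraries, with Benjamini-Hochberg adjustment over all of them. A fold change on this scale understates that of low genes. The script was tested on simulated data of 12122 genes. Log2 changes of 2, 4 and 8 were put into 74, 63 and 63 of them, and the rest were left unchanged. These changes were called in 4.05%, 6.35% and 57.1% of the changed genes, with 4 false calls among the unchanged ones. A gene that did not pass may therefore still have changed. Python 3.11.15 with numpy 2.4.6, pandas 2.3.3 and matplotlib 3.10.9 made tables and figures.

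The members, lists and tests were chosen with earlier results of these data known. Named are all members called, every receptor, and up to 4 members per role with the highest mean. Values of further members are given as ranges, or by name where they were chosen after their values were seen. The labels call the library number a batch, so numbers 1 to 4 pair the groups. For these pairs the correlation of the deviations from the group mean was 0.155, 0.0118, 0.0424 and 0.0342, with a mean of 0.0609 against -0.00869 for other pairs. Batches 5 to 8 hold migratory libraries alone. The highest correlation of any 2 libraries on the log2 scale was 0.805. Alternatives covered pseudocount, filter, scaling, weights, an exact permutation test over 495 arrangements, the replicate block and leaving out libraries. Replicates are labelled biological, with no animal or culture named, so the spread behind a p-value is that between libraries and may be technical. A gene of the wider pathway list is counted but not reported here by name.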

Additional observations from a re-analysis of the deposited data

Results flagged for a closer look

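Among the 39 named members, 1 library far from the rest of its group on the log2(value + 1) scale was looked for. In 74 groups of values 19 such libraries were found. Many members were named for a high mean over these same libraries, which 1 high library can give. The number found can therefore not be set against a rate expected by chance. Many values here are 0 or near it, so a low value can stand apart.

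In migratory replicate 5 SPRY2 (2.55) and SPRY4 (2.14) stood below the other 7 libraries, which were at 832 to 5211 and at 2003 to 13001. In migratory replicate 4 FRS2 (3.03, ENSDARG00000037353), DUSP4 (2.95) and FGFR1OP2 (2.82) stood below the others, at 294 to 1394, 858 to 6389 and 429 to 3410.

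High single libraries were migratory replicate 6 for fgf17 (2611) and fgfrl1b (80.8), migratory replicate 1 for FGF13 (547, ENSDARG00000035056), and migratory replicate 2 for FGF13 (708, ENSDARG00000056633) and ETV4 (291). In premigratory libraries they were replicate 2 for FGF20 (765) and fgfr1bl (2.90), and replicate 3 for etv5a (7071).

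In premigratory replicate 4 low values stood above a group otherwise listed at 0: fgf17 (2.65), FGF19 (1.68), fgf21 (1.93), fgf23 (0.957), FGF13 (7.70) and FGFR3 (1.54). The same held in premigratory replicate 2 for fgfr1bl (2.90).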

How the results depend on the processing

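Over all genes 1508 were called higher and 16 lower, and 3 members higher. With a pseudocount of 0.1, 5 members were called (16.1%), among them 1 receptor and 1 feedback inhibitor, beside 1761 genes higher (14.5%). With a pseudocount of 10, 821 genes were higher. Without a filter 851 were higher and 7 lower. With a value of 10 in at least 8 libraries 936 were higher, and 1 member and 0 adaptors were called. Trimmed mean of M values gave 664 higher and 65 lower (91.1% of calls higher, against 98.95% as reported), median of ratios 753 and 59 (92.7%), and quantile normalisation 139 and 53 (72.4%) with 1 member and 0 adaptors. These scalings moved the median log2 fold change of all genes from 2.67 to 1.66, 1.85 and -0.00. The exact permutation test gave 491 higher and 8 lower, with 1 member and 0 adaptors, and array weights gave 5 lower. In all of these except the pseudocount of 0.1 and array weights, 0 MAP kinase phosphatases were called, since DUSP7 missed the threshold or was not tested.

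With the fixed replicate block, which compares the stages within batches 1 to 4 alone, 0 genes were higher and 0 lower. In that fit 0 members, adaptors, MAP kinase phosphatases and other phosphatases were called. With the number as a random block 12.9% of the tested members, among them 1 feedback inhibitor, and 12.7% of all tested genes were called higher. Leaving out 1 library at a time gave 771 to 1911 genes higher (771 without premigratory replicate 3), 6 to 19 lower and 2 to 4 members higher, with 0 to 1 receptors, feedback inhibitors and MAP kinase phosphatases. Genes lower fell to 6 without premigratory replicate 3, to 7 without migratory replicate 8, and to 8, 8, 9 and 10 without premigratory replicate 2 and migratory replicates 7, 3 and 2. The causes were not tested.

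No uncalled sign below was past the threshold. FGFR1 (ENSDARG00000011027) turned to -0.44 with a pseudocount of 10, to -0.77, -0.72, -0.21 and -3.70 with the trimmed mean of M values, with the median of ratios, with equal totals and with quantile normalisation, and to -0.33 with array weights. DUSP12 turned to -0.49, -0.31 and -1.73 with the first 2 and the last of these scalings. Quantile normalisation also turned FGFR1 (ENSDARG00000011190) to -1.21, dusp11 to -2.44, DUSP19 to -0.96, fgfr4 to -0.56, DUSP2 to -0.52 and IL17RD to -1.69. Without premigratory replicate 1 and migratory replicate 5 together, fgfr4 was at -0.42. Leaving out 1 library at a time, log2 fold changes ran from -1.40 to 2.63 for FGFR1 (ENSDARG00000011027), -4.11 to 0.057 for FGFR2, -0.32 to 3.18 for fgfr4, -0.78 to 3.13 for DUSP12, -0.61 to 3.16 for dusp11 and -0.65 to 3.77 for DUSP1.

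Libraries of 20 cells with many values at 0 limit what can be called, and depth in reads is not known.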

Other observations

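Premigratory replicate 4 and migratory replicate 4, which share a number, held 10920 and 12449 genes at low values, from above 1.5 to below 20, against 2549 to 6050 in the other libraries. At a value of 1 or more these libraries also held the most members, 51 and 59, against 18 to 44 elsewhere, although at 10 or more they held 14 and 20. Low values of members in these libraries therefore stand among many low values of other genes.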
